A study of Mus musculus with 12 samples.

Results

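Mammary tumours of mice that had borne several litters were compared by their growth pattern, mixed against solid nodular. The members are the 4 tumours of the series described as multiparous, 2 labelled mixed and 2 labelled solid nodular, out of 12 tumours in all. They hold 2342 of the 7366 cells with at least 200 detected genes. All 4 are untreated tumours of the FVBN strain, and each pattern has 1 tumour taken at 17 weeks and 1 at 16 weeks. The study uses HER2 Crainbow mice, in which Cre driven by the MMTV promoter, active mainly in mammary epithelium, switches on one of several forms of the receptor HER2 with a fluorescent colour. The genotype of these 4 tumours is labelled unknown, so the form of HER2 in each cannot be told apart from its growth pattern. Cells were captured in droplets (ddSEQ) and their 3′ mRNA ends were counted with unique molecular identifiers (UMIs). The labels do not say that the tumours came from separate animals, so the p-values measure only the spread between these samples.

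The mammary gland has an inner luminal layer, which can make milk, and an outer basal or myoepithelial layer that contracts and rests on the basement membrane. Luminal cells carry keratins 8 and 18, whereas basal cells carry keratins 5, 14 and 17, the transcription factor p63 and the laminin-332 and hemidesmosome proteins that fix them to the membrane. HER2 tumours are usually luminal in character. Tumours with squamous or spindle-shaped areas also occur in the mammary gland, and these areas use genes of skin keratinisation or of mesenchyme.

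Throughout, values in a pair are given with the 17-week tumour first. The mixed tumours kept 683 and 586 cells with 3044255 and 2159993 UMIs. The solid nodular tumours kept 729 cells with 4041724 UMIs and 344 cells with 926805 UMIs. Median UMIs per cell were 3574 and 2683 (mixed) and 4536 and 1728 (solid nodular), so the 16-week solid nodular tumour was the shallowest. No pair of these tumours shared more than 1 cell barcode. Levels are UMIs summed over all kept cells of a tumour, as TMM-normalised CPM, UMI counts scaled to a common library total. In such sums, fewer cells of a type and less RNA per cell cannot be told apart. Differences are log2 fold changes, mixed minus solid nodular, ± standard error (SE), from edgeR's quasi-likelihood test with n = 2 tumours per group. Adjusted p is Benjamini-Hochberg over all genes tested, and a gene passed the test below 0.05.

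The 2 mixed tumours were close to each other, and the 2 solid nodular tumours were not. Over 5526 genes with an average log2 CPM of at least 5, the mixed tumours differed by a median of 0.19 on the log2 scale, and 2.79% of genes differed more than 2-fold. Between the solid nodular tumours the median was 0.41, with 14.9% of genes beyond 2-fold. Between a mixed and a solid nodular tumour the medians ran from 0.44 to 0.47, with 17.3% to 20.0% of genes beyond 2-fold. The spread within the solid nodular label was therefore almost as wide as the distance between labels.

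Mixed tumours were marked by basal keratins, hemidesmosome and squamous genes, and solid nodular tumours by Sox10. Of 11278 genes tested in whole tumours, 26 (0.231%) were higher in the mixed tumours and 6 (0.0532%) were lower, 32 (0.284%) in all. The 26 rose by 2.72 to 8.91 log2 units, leaving aside 2 genes without a UMI in either solid nodular tumour. The other 6 fell by 2.32 or more. Adjusted p ran from 0.0314 to 0.0496. In the same test 2280 genes (20.2%) had an unadjusted p under 0.05. No gene passed when either mixed tumour was left out (716 genes at an unadjusted p under 0.05 without the 17-week and 778 without the 16-week mixed tumour) or when all 12 tumours shared the fit (1647 genes). Without the 17-week solid nodular tumour 671 genes passed, and without the 16-week one 1964 did. Fits with a lone tumour assume that it varies like the others.

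**Figure D1:**
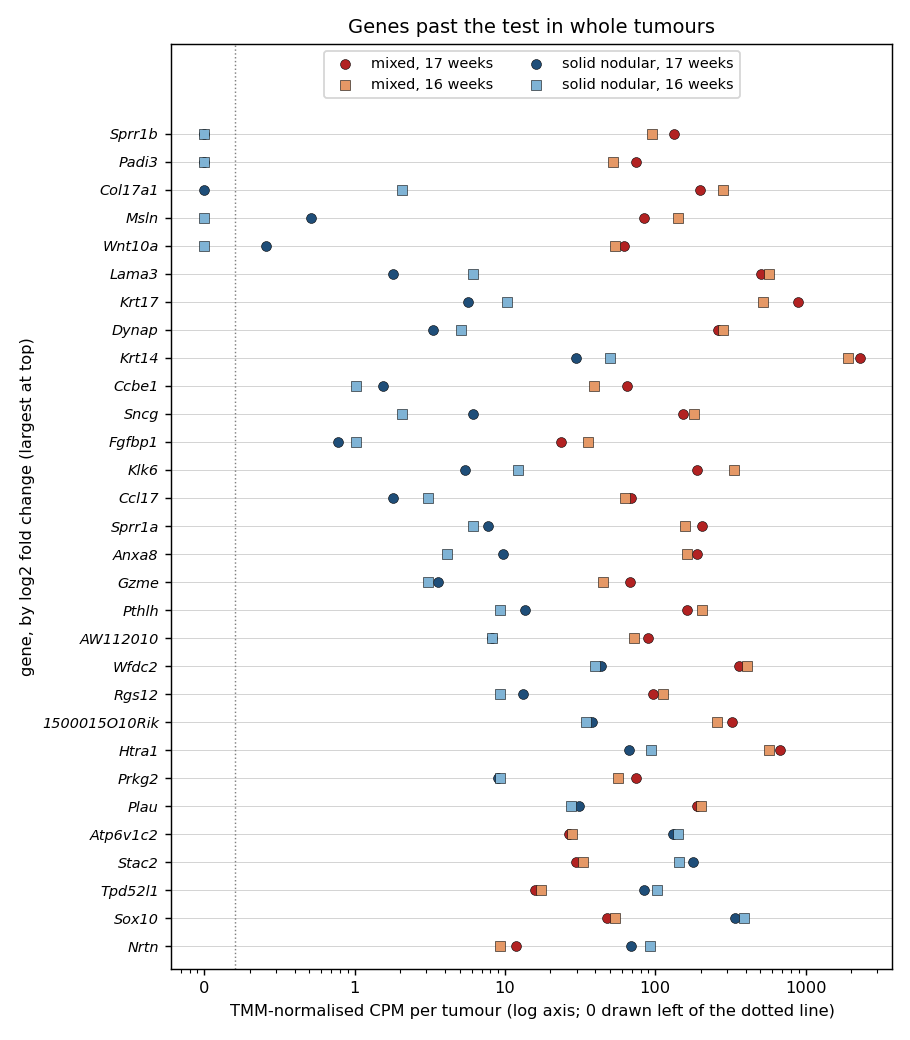
Level of 30 of the 32 genes that passed the test, in TMM-normalised CPM on a log axis, with 1 point per tumour and genes ordered by log2 fold change. For the 25 higher genes drawn both mixed tumours lie to the right of both solid nodular tumours, and for the 5 lower genes at the bottom they lie to the left.

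Keratins of the basal layer were among the genes that rose. Krt14, on mouse chromosome 11 (GRCm38, 100203162 to 100207548), encodes the main keratin of basal epithelium. It stood at 2289 and 1901 CPM in the mixed tumours and at 29.5 and 50.3 CPM in the solid nodular tumours. Both mixed tumours were far above both solid nodular ones, and the rise was 5.74 ± 0.44 (edgeR, adjusted p = 0.0314). Krt17, a keratin of stressed and basal epithelium on the same chromosome (100256217 to 100261029), was at 886 and 524 CPM against 5.65 and 10.3 CPM. Again the groups did not overlap, and Krt17 rose by 6.59 ± 0.50 (adjusted p = 0.0314). Krt5, the partner with which Krt14 forms filaments, showed 1217 and 742 CPM against 1.54 and 10.3 CPM. Its groups did not overlap, with a difference of 7.81 ± 0.90, but it missed the threshold (adjusted p = 0.0556). Luminal keratins were present in all 4 tumours: Krt8 was at 1565 and 2291 CPM against 1401 and 921 CPM, and Krt18 at 1478 and 2182 CPM against 1398 and 1149 CPM. Neither passed (0.73 ± 0.38, adjusted p = 0.349, and 0.52 ± 0.35, adjusted p = 0.451).

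Anchors to the basement membrane followed the same order. Lama3, the alpha chain of laminin-332, stood at 507 and 572 CPM in the mixed tumours and at 1.80 and 6.15 CPM in the solid nodular tumours. Every mixed value lay above every solid nodular one, with a rise of 7.44 ± 0.57 (adjusted p = 0.0314). Col17a1, a transmembrane collagen of the hemidesmosome, was at 197 and 283 CPM against 0 and 2.05 CPM. The gene was nearly undetected in solid nodular tumours and rose by 8.91 ± 0.91 (adjusted p = 0.0433). Sprr1a, Pthlh, Ccl17 and Gzme, described below, lie outside the rule that named genes and were chosen after their values were seen.

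Of 20 measured genes of the basal and myoepithelial list, 19 had a log2 fold change above 0, with a median of 2.64. Of all genes tested 47.6% lay above 0, with a median of -0.04. Among the 5 that passed were Krt14, Krt17, Lama3 and Col17a1. In 14 of the 20 both mixed tumours lay above both solid nodular ones, and in none below, where 26.9% of all genes tested lay above and 26.1% below. Summed over the list, the level was 10308 and 9425 CPM in the mixed and 1243 and 2687 CPM in the solid nodular tumours.

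Squamous genes were the next group. Sprr1b, which encodes a small proline-rich protein of the cornified envelope, was at 133 and 94.7 CPM in the mixed tumours and had no UMI in either solid nodular tumour. It was at least 189-fold higher in mixed tumours, taking 3 UMIs over the solid nodular group as the floor (adjusted p = 0.0322). Padi3, a peptidylarginine deiminase of hair follicle and epidermis, was at 74.3 and 52.7 CPM against 0 and 0, at least 106-fold higher (adjusted p = 0.0382). Sprr1a, a related protein of the same envelope, was at 206 and 157 CPM against 7.71 and 6.15 CPM, a rise of 4.65 ± 0.31 (adjusted p = 0.0314). In these 3 genes both mixed tumours lay above both solid nodular ones. Keratins of wound and suprabasal epithelium did not pass: Krt6a was at 1405 and 982 CPM against 12.8 and 43.1 CPM, and Krt16 at 401 and 220 CPM against 3.60 and 12.3 CPM (both adjusted p = 0.0559). Across the list 14 of 17 tested genes lay above 0, with a median of 3.31, or 3.21 with genes at 0 UMIs set to their bound. In 12 of the 17 the mixed tumours lay above and in none below, beside 26.9% and 26.1% of all genes tested.

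Wnt10a, a Wnt ligand of placode and hair follicle development, was at 62.1 and 53.6 CPM in the mixed tumours and at 0.257 and 0 CPM in the solid nodular tumours. Only 1 UMI of it was counted in the solid nodular group, and it rose by 7.84 ± 0.56 (adjusted p = 0.0314). Of 18 measured genes of the Wnt list 12 lay above 0, with a median of 1.39, and Wnt10a was the only one that passed. Pthlh, the parathyroid hormone-related peptide of embryonic mammary and skin epithelium, stood at 162 and 203 CPM against 13.6 and 9.23 CPM and rose by 3.93 ± 0.31 (adjusted p = 0.0314). Both mixed tumours lay above both others. Msln, the surface protein mesothelin, was at 84.2 and 142 CPM against 0.514 and 0 CPM, a rise of 7.96 ± 0.64 (adjusted p = 0.0314). Sncg, gamma-synuclein, was at 154 and 181 CPM against 6.17 and 2.05 CPM, a rise of 5.09 ± 0.44 (adjusted p = 0.0322). Dynap, a transmembrane protein linked to dynactin, was at 262 and 281 CPM against 3.34 and 5.13 CPM, a rise of 6.11 ± 0.33 (adjusted p = 0.0314). The chemokine Ccl17, at 68.9 and 62.5 CPM against 1.80 and 3.08 CPM, and the granzyme Gzme, at 68.2 and 44.8 CPM against 3.60 and 3.08 CPM, also rose (4.91 ± 0.38 and 4.02 ± 0.40, adjusted p = 0.0314 and 0.0433).

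Ligands of the ERBB receptor family, to which HER2 belongs, did not pass the test. The neuregulin gene Nrg1 stood at 70.6 and 80.7 CPM against 3.85 and 9.23 CPM (adjusted p = 0.0559). Ereg, epiregulin, was at 407 and 199 CPM against 23.6 and 65.6 CPM (adjusted p = 0.104). Epgn, epigen, was at 45.5 and 42.5 CPM against 5.65 and 0 CPM (adjusted p = 0.101). These 3 were named for the size of their change. Of the 8 genes of the list tested, 6 lay above 0 (median 0.59), 5 lay apart above and 1 below, beside 26.9% and 26.1% of all genes. The receptor gene Erbb2 itself, as its mouse transcript is listed, was at 44.8 and 51.8 CPM against 57.3 and 55.4 CPM, a difference of -0.23 ± 0.24 (adjusted p = 0.632). Whether the listed gene also counts reads of the transgene is not given in the sources used here.

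Of the enzymes that digest matrix, 1 passed the test. Plau, the urokinase that activates plasminogen, was at 189 and 202 CPM in the mixed and 31.1 and 27.7 CPM in the solid nodular tumours and rose by 2.72 ± 0.24 (adjusted p = 0.0322). Mmp13, an interstitial collagenase, was at 14015 and 2858 CPM against 119 and 20.5 CPM, and did not pass (adjusted p = 0.0897). Mmp9 was at 1207 and 205 CPM against 6.17 and 67.7 CPM, and Mmp10 at 1308 and 284 CPM against 5.14 and 94.4 CPM. These 3 metalloproteinases were highest by far in the 17-week mixed tumour. All 22 tested genes of the protease list had a log2 fold change above 0 (median 1.43), and Plau was the 1 that passed. In 19 of them the mixed tumours lay apart above, beside 26.9% of all genes tested. In fibroblast-like cells alone Mmp13 was at 7837 and 2860 CPM in the mixed tumours, at 208 CPM in the 17-week solid nodular tumour and without a UMI in the 21 such cells of the 16-week one. These do not include cluster 8, an unnamed stromal cluster whose leading gene is Mmp13. In macrophage-like cells thinned to 1000 UMIs, Mmp13 was detected in 33.3% and 11.1% of the mixed and 3.57% and 0% of the solid nodular tumours' cells (exact upper bound of the last 12.8%), and the part of free RNA in these values was not tested.

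The 6 genes that fell included Sox10. This gene, a transcription factor of neural crest and of mammary progenitor cells on chromosome 15 (79154908 to 79165240), stood at 47.5 and 54.1 CPM in the mixed tumours and at 341 and 392 CPM in the solid nodular tumours. It fell by 2.85 ± 0.24 (adjusted p = 0.0322), and the 2 solid nodular tumours were alike in it. Sox10 is also a gene of Schwann cells, the glia of nerves, and stands on the muscle and nerve marker list, of whose 3 tested genes 1 lay above 0. Nrtn, the growth factor neurturin, was at 11.9 and 9.33 CPM against 69.4 and 92.3 CPM (fell by 2.90 ± 0.31, adjusted p = 0.0472). The adaptor gene Stac2, at 29.5 and 33.1 CPM against 178 and 144 CPM, fell by 2.36 ± 0.25 with the same adjusted p. Tpd52l1, of the tumour protein D52 family, and Atp6v1c2, a subunit of the vacuolar proton pump, fell by 2.48 ± 0.26 and 2.32 ± 0.23 (adjusted p = 0.0472 and 0.0433).

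The caseins differed more between the 2 solid nodular tumours than between the labels. Csn2, beta-casein, was at 134 and 50.4 CPM in the mixed tumours, at 26957 CPM in the 17-week solid nodular tumour and without a UMI in the 16-week one. Csn3, kappa-casein, was at 2029 and 1221 CPM against 29874 and 454 CPM. For both genes the mixed tumours lay between the solid nodular ones. Of 16 tested milk and alveolar genes 15 lay below 0, with a median of -3.23, and none passed (edgeR, 5 at an unadjusted p under 0.05). Only 2 lay below without overlap (Elf5 and Aldoc), where 26.1% of all genes tested did. Without the 17-week solid nodular tumour the median of the list was 1.82. The 16-week solid nodular tumour had genes of its own: Krt23 was at 298 CPM there against 7.19 CPM in the 17-week solid nodular tumour and 2.04 and 1.87 CPM in the mixed ones, and Nkd1, an inhibitor of Wnt signalling, at 290 CPM against 3.85, 10.9 and 5.13 CPM.

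**Figure D2:**
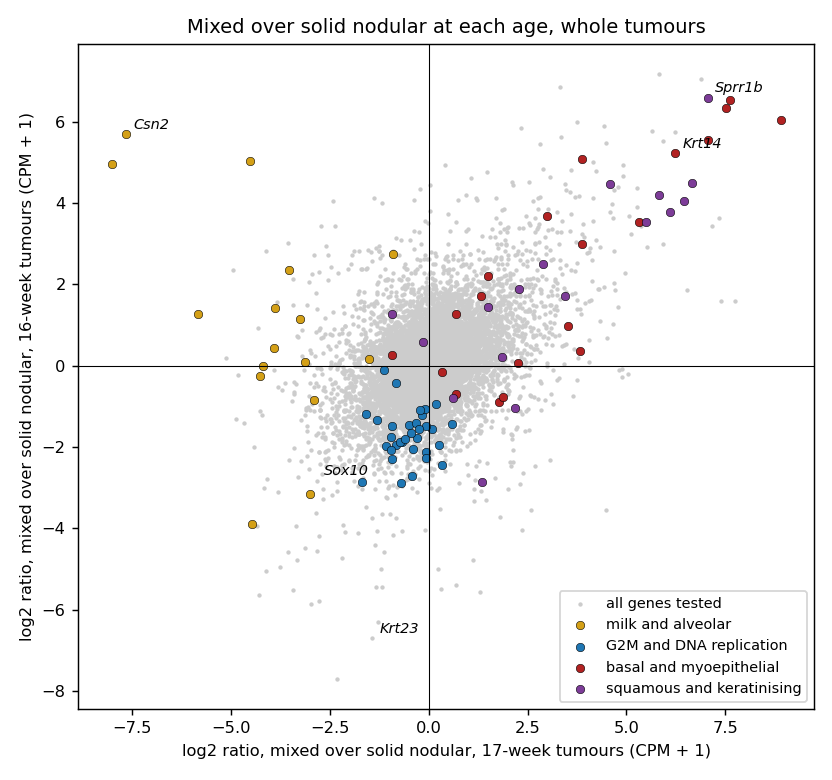
Log2 ratio of mixed over solid nodular CPM (plus 1) in the 17-week tumours (x axis) and in the 16-week tumours (y axis), with 1 point per gene tested and 4 gene lists in colour. Basal and squamous genes lie in the upper right quadrant for the most part, milk genes mainly to the left with Csn2 at -7.64 and 5.68, and cell-division genes near and below 0 on both axes.

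Genes of cell division lay low in the mixed tumours, though none of the 33 tested passed in edgeR. All 33 had a log2 fold change below 0, with a median of -1.25, and in 23 both mixed tumours lay below both solid nodular ones. Of all genes tested, 26.1% lay below without overlap and 47.6% had a log2 fold change above 0. Mki67, the proliferation antigen Ki-67, was at 11.2 and 9.80 CPM against 35.7 and 23.6 CPM (-1.52 ± 0.36, adjusted p = 0.122). Birc5, survivin, was at 18.7 and 17.3 CPM against 36.2 and 89.2 CPM (adjusted p = 0.145). Summed over the list, levels were 1222 and 989 CPM in the mixed and 1414 and 2878 CPM in the solid nodular tumours. Of the respiratory chain genes 33 of 35 lay below 0, with a median of -0.66 and none past the test. In 30 of them the groups did not overlap, beside the same 26.1% of all genes. Cox7c, a subunit of cytochrome c oxidase, stood at 163 and 138 CPM against 307 and 303 CPM (adjusted p = 0.11). Epithelial-mesenchymal transition genes had a median of 1.07 with 25 of 27 above 0 and none past the test, and in whole tumours Vim, the intermediate filament of mesenchyme, was at 3912 and 3491 CPM against 1131 and 2391 CPM (adjusted p = 0.279).

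**Figure D3:**
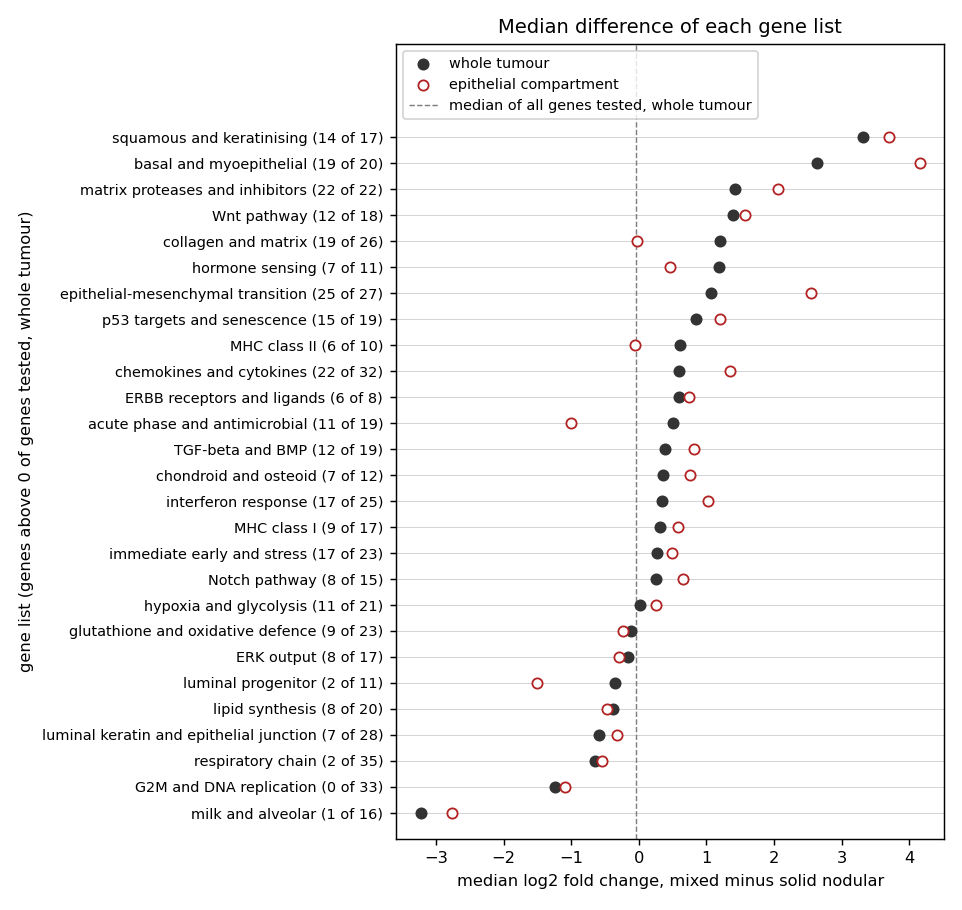
Median log2 fold change of each gene list, mixed minus solid nodular, in whole tumours (filled points) and in the epithelial compartment (open points), with the median of all genes tested as a dashed line. Squamous, basal, protease and Wnt lists stand highest in whole tumours, at 3.31, 2.64, 1.43 and 1.39, and the milk list lowest at -3.23.

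Markers of other cell types differed in summed level between the tumours, and none of the fibroblast, neutrophil, macrophage, pericyte or mast cell markers passed the test in edgeR. The 12 tested fibroblast markers summed to 17586 and 14980 CPM in the mixed and 5477 and 8344 CPM in the solid nodular tumours, with 10 of 12 above 0. Neutrophil markers summed to 1678 and 817 CPM against 96.5 and 445 CPM, with 7 of 8 above 0. Dendritic markers overlapped in sum, at 364 and 261 CPM against 66.3 and 405 CPM, with 3 of 5 tested above 0. Of 13 macrophage markers 1 lay above 0 (median -0.64). Of 10 pericyte markers 2 did (median -0.74), but their sums overlapped, at 472 and 257 CPM against 313 and 401 CPM. The 9 endothelial markers had a median of 0.05. All 4 tested mast cell markers lay below 0, with a median of -6.25, or -5.47 with bounds, and Tpsb2, a mast cell tryptase, had no UMI in the mixed tumours and stood at 9.76 and 45.1 CPM in the solid nodular tumours. Their part in the whole-tumour differences was not tested.

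Cells of all 12 tumours were clustered together and each cluster was named from marker lists. Fibroblast-like cells were 14.3% (95% exact binomial interval 11.8 to 17.2) and 16.7% (13.8 to 20.0) of the cells of the mixed tumours, and 8.50% (6.58 to 10.8) and 6.10% (3.82 to 9.18) of the solid nodular ones. Cluster 8, which matched fibroblast markers best but stayed unnamed, held 20.9% (17.9 to 24.2) and 8.70% (6.55 to 11.3) of the mixed and 3.29% (2.12 to 4.86) and 2.33% (1.009 to 4.53) of the solid nodular cells. All stromal clusters together were 39.7% and 29.5% against 19.1% and 14.8%. Neutrophil-like cells were 6.0% (4.34 to 8.06) and 4.78% (3.20 to 6.83) against 0.137% (0.00347 to 0.762) and 3.20% (1.61 to 5.65). Dendritic-like cells, whose cluster 6 was led by Ccl17, were 3.95% (2.62 to 5.70) and 2.90% (1.70 to 4.6) against 0.823% (0.303 to 1.78) and 0.581% (0.0705 to 2.08). Pericyte-like cells went the other way, with 2.64% (1.57 to 4.13) and 2.05% (1.06 to 3.55) against 5.62% (4.07 to 7.55) and 4.94% (2.90 to 7.79). These groups, and endothelial-like cells, did not overlap. With 2 tumours against 2 the exact two-sided permutation test cannot give less than 0.333, which each of these 5 classes reached (adjusted p = 0.533 over 8 classes). Epithelial-like, macrophage-like and T or NK-like shares overlapped. Intervals cover counting error only. The minimum of 200 genes kept 344 of 413 barcodes of the 16-week solid nodular tumour and every barcode of the other 3.

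Epithelial-like cells were 42.2% (38.4 to 46.0) and 51.0% (46.9 to 55.1) of the mixed tumours, 68.0% (64.5 to 71.4) of the 17-week solid nodular tumour and 7.56% (5.0 to 10.9) of the 16-week one. In the latter, 217 of the 344 cells fell in cluster 12, which stayed unnamed, held 2 cells of the other multiparous tumours and had 221 cells over all 12. Epcam, an epithelial adhesion molecule, was detected in 63.5% of its 219 multiparous cells, Krt18 in 76.7% and Sox10 in 51.1%, against 1.37% for the leukocyte gene Ptprc and 3.20% for the collagen gene Col1a1. Its median of 1494 UMIs was low, and its epithelial score, though the highest of its 3 compartment scores, was close to 0 at -0.009. A cluster that is nearly all 1 library may be that library and not a cell type. By compartment, which includes this cluster, epithelial cells were 42.3% and 51.0% of the mixed and 68.2% and 70.6% of the solid nodular tumours.

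Within the epithelial compartment the larger clusters differed between the labels. The 17-week solid nodular tumour lay in cluster 2, led by Comp and Gpx2 (58.1% of 497 cells), and in cluster 1, led by caseins (28.4%). The 16-week solid nodular tumour lay in cluster 12 (89.3% of 243 cells). The mixed tumours shared cluster 5, led by Col17a1 and Krt5 (32.9% of 289 and 19.7% of 299 cells), and cluster 18, led by Stmn2 and Msln (16.6% and 45.2%). Cluster 5 had 0 and 1 cells of the solid nodular tumours, and cluster 18 had 2 and 1. These clusters were built on the genes that differ, so their sizes are a description only.

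**Figure D4:**
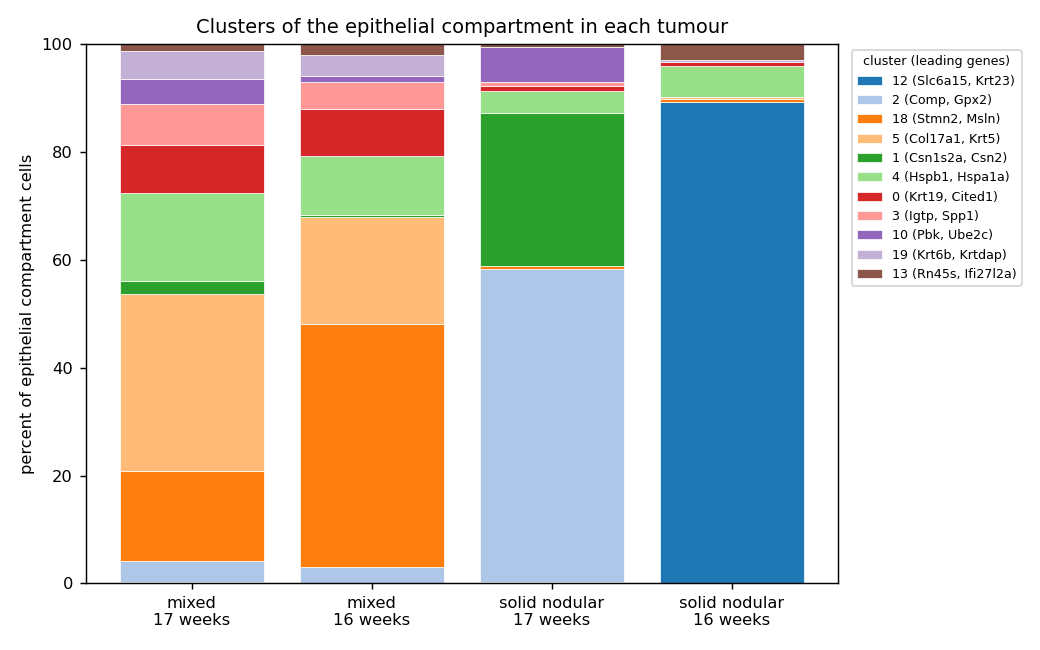
Percent of the epithelial compartment cells of each tumour in each cluster, as stacked bars from 0 to 100, with the cluster number and its leading genes. Clusters 5 and 18 make up much of both mixed tumours, whereas the solid nodular tumours share no large cluster: cluster 2 holds 58.1% of the 17-week and cluster 12 holds 89.3% of the 16-week tumour.

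Counting UMIs only in the epithelial compartment kept the basal differences and added mesenchymal, Wnt, interleukin and p53-linked genes. This compartment holds the clusters whose score for luminal plus basal markers exceeded their immune and stromal scores. Those markers include Krt5, Krt14, Krt17, Trp63 and Col17a1. The rise of these genes there is therefore not independent of how the cells were chosen. Of 9552 genes tested, 158 (1.65%) rose and 18 (0.188%) fell, 176 (1.84%) in all. Of all tested genes, 19.1% had an unadjusted p under 0.05 and 47.2% had a log2 fold change above 0. Of the 32 genes called in whole tumours 27 were called here too, which is 84.4% of the whole-tumour calls and 15.3% of the epithelial ones. The other 5 were Ccl17 and Gzme, too low to be tested here, and 1500015O10Rik, Htra1 and Nrtn, with adjusted p of 0.0947, 0.0563 and 0.0512. No gene passed in edgeR without either mixed tumour (776 and 618 at an unadjusted p under 0.05), with age as a block (1438) or with all 12 tumours in the fit (1587). Without cluster 12, which leaves 26 epithelial cells in the 16-week solid nodular tumour, 964 genes passed upwards and 685 downwards. Without the 17-week solid nodular tumour 2483 genes passed and without the 16-week one 3172 did.

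Of 17 basal and myoepithelial genes tested there, 16 lay above 0 with a median of 4.15 against -0.05 for all genes, and 9 rose, among them Krt5, Krt14, Krt17, Trp63, Itgb4, Lama3, Col17a1 and Cav1. In 16 of the 17 the mixed tumours lay above, where 27.0% of all genes lay above and 25.5% below. Krt5 stood at 2522 and 1198 CPM of epithelial UMIs against 2.04 and 15.7 CPM, a rise of 8.09 ± 1.13 (adjusted p = 0.0426). Trp63, the transcription factor p63 that defines basal cells, was chosen after its values were seen. It was at 54.6 and 39.6 CPM against 3.41 and 1.57 CPM and rose by 3.98 ± 0.50 (adjusted p = 0.0374). The mixed tumours lay far above the others in both genes.

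Squamous genes of the epithelial compartment had 15 of 16 above 0 (median 3.70) and 6 that rose, namely Krt6a, Krt16, Sprr1a, Sprr1b, Klk8 and Ly6d. For all genes tested there the shares were 47.2% above 0 and 1.65% that rose. Klk8, a serine protease of shedding skin, was at 639 and 707 CPM against 5.45 and 11 CPM and rose by 6.51 ± 0.47 (adjusted p = 0.0251). Serpinb2, a plasminogen activator inhibitor of keratinocytes, was at 402 and 471 CPM against 0 and 1.57 CPM, a rise of 10.16 ± 0.89 (adjusted p = 0.0251). The groups did not overlap in either gene, and Serpinb2 was close to undetected in the solid nodular tumours.

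Genes of mesenchymal character rose in the epithelial compartment too, with 21 of 25 listed genes above 0, a median of 2.54 and 7 that rose (Vim, Fn1, Tgfbi, Itga5, Axl, Cd44 and Tpm2). Among all genes tested there 47.2% lay above 0 and 1.65% rose. In 17 of the 25 the mixed tumours lay apart above, beside 27.0% of all genes. Vim was at 1856 and 2565 CPM against 200 and 259 CPM and rose by 3.27 ± 0.40 (adjusted p = 0.0336). Fn1, fibronectin, was at 3456 and 6815 CPM against 72.2 and 95.9 CPM, a rise of 5.94 ± 0.60 (adjusted p = 0.0278). Axl, a receptor tyrosine kinase of invasive cells, was at 274 and 284 CPM against 6.47 and 0 CPM, a rise of 5.90 ± 0.75 (adjusted p = 0.0375). The mixed tumours lay above in all 3. Of 7 fibroblast markers tested in the same compartment 4 lay above 0 (median 0.08) and 1, the actin-severing gene Gsn, rose (329 and 317 CPM against 76.96 and 75.5 CPM, adjusted p = 0.0374), and Col1a1 was at 36.0 and 14.4 CPM of raw epithelial UMIs against 10.02 and 57.8 CPM. Mmp13, the leading gene of the unnamed stromal cluster 8, also rose in this compartment. It was at 521 and 150 CPM of raw epithelial UMIs against 1.88 and 8.26 CPM. The part of free RNA from stromal cells in the values of these mesenchymal genes was not tested. Epcam itself was at 1147 and 892 CPM against 2755 and 2038 CPM and did not pass (-1.23 ± 0.38, adjusted p = 0.182).

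Ligands and cytokines that rose in the epithelial compartment included Wnt7a, Wnt7b, Wnt10a and Wnt11 among 11 Wnt genes tested, and Cxcl16, Il1a, Il33 and Csf2 among 24 chemokines and cytokines. The share that rose over all genes tested there was 1.65%. Wnt7b was at 244 and 322 CPM against 19.8 and 9.44 CPM and rose by 4.16 ± 0.43 (adjusted p = 0.0281). Il1a, interleukin 1 alpha, an alarm cytokine of epithelium, was at 175 and 135 CPM against 2.72 and 7.86 CPM, a rise of 5.19 ± 0.54 (adjusted p = 0.0281). Csf2, the growth factor GM-CSF, was at 53.9 and 143 CPM against 1.36 and 0 CPM, a rise of 6.43 ± 0.88 (adjusted p = 0.0421). The groups lay apart in each. The Wnt list's median of 1.57 turned to -0.49 without the low-count filter, and to between -1.42 and -0.26 in 3 of the fits that left out a tumour. Bmp2, a bone morphogenetic protein, was at 87.6 and 123 CPM against 2.72 and 4.72 CPM and rose by 4.98 ± 0.46 (adjusted p = 0.0269).

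Cell-cycle brakes and p53-linked genes had 3 of 19 tested members that rose (16 above 0, median 1.21), beside 1.65% and 47.2% of all genes tested there. Cdkn2a, on chromosome 4 (89274471 to 89294653), encodes the inhibitors p16 and p19ARF and was at 57.5 and 50.3 CPM against 1.36 and 4.72 CPM. It rose by 4.57 ± 0.61 (adjusted p = 0.0416), and the 2 mixed tumours had nearly the same level. Pmaip1, the p53-induced death gene Noxa, was at 89.1 and 101 CPM against 5.45 and 1.57 CPM, a rise of 4.43 ± 0.49 (adjusted p = 0.0296). Eda2r, a p53-regulated receptor, rose by 3.39 ± 0.50 (adjusted p = 0.047). In the cell-division list 31 of 32 genes lay below 0 in this compartment (median -1.10) and none passed the test. In 14 of them the groups did not overlap, beside 25.5% of all genes tested there. Summed over the list, levels overlapped, at 1585.5 and 1084.7 CPM of raw epithelial UMIs in the mixed and 1454.9 and 3583.9 CPM in the solid nodular tumours.

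The 18 genes that fell in the epithelial compartment included Col11a1, Tfap2b, Thrsp and Smpdl3a. Col11a1, a fibrillar collagen of cartilage, was at 74.0 and 74.7 CPM against 840 and 638 CPM and fell by 3.31 ± 0.32 (adjusted p = 0.0278). Tfap2b, a transcription factor of luminal cells, was at 3.59 and 6.86 CPM against 70.1 and 62.9 CPM and fell by 3.66 ± 0.44 (adjusted p = 0.0333). Sox10 was at 94.1 and 86.1 CPM against 446 and 599 CPM and fell by 2.53 ± 0.31 (adjusted p = 0.0336). Both solid nodular tumours were high in each gene, though they lay in different clusters.

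Cells carrying Krt14 were common in the mixed epithelium. With each cell thinned to 1000 UMIs, Krt14 was detected in 61.0% (54.7 to 67.1) of 254 and 47.2% (41.2 to 53.4) of 271 epithelial cells of the mixed tumours. In the solid nodular tumours the shares were 0.805% (0.220 to 2.05) of 497 and 4.32% (1.60 to 9.16) of 139 cells. Thinning left out 35, 28, 0 and 104 shallower cells, in the order mixed then solid nodular, and the shares before it were 70.2%, 59.2%, 1.21% and 4.12%. In macrophage-like cells, which should lack the gene, the thinned share was 11.1% in the 17-week mixed tumour (3 of 27 cells) and 0 in the other 3 (exact upper bounds 6.60% of 54 cells in the 16-week mixed, 4.30% of 84 and 12.8% of 27 in the solid nodular tumours). Median depths before thinning were 3602, 3356, 5601 and 1414 UMIs in epithelial and 2404, 1819, 2504 and 2896 UMIs in macrophage-like cells. Of the epithelial cells with a Krt14 UMI in the mixed tumours, 87.2% of 203 and 87.6% of 177 also had a UMI of the luminal keratin Krt8, close to its share in all epithelial cells there (86.9% and 89.0%).

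Sox10 showed the reverse order, at 10.2% (6.80 to 14.6) and 7.38% (4.57 to 11.2) of thinned epithelial cells in the mixed and 32.8% (28.7 to 37.1) and 41.0% (32.7 to 49.7) in the solid nodular tumours. Before thinning the shares were 20.8% and 19.4% against 73.8% and 46.9%. Of thinned macrophage-like cells, 1.19% (1 of 84) had a Sox10 UMI in the 17-week solid nodular tumour and none elsewhere. Exact upper bounds were 12.8% of 27 and 6.60% of 54 cells in the mixed tumours and 12.8% of 27 in the 16-week solid nodular tumour. Csn2 was unlike these genes: 73.8% of thinned macrophage-like cells of the 17-week solid nodular tumour had a Csn2 UMI, as many as its epithelial cells (70.8%). Detection of Csn2 in a single cell of that tumour was therefore not read as expression by that cell. Summed levels did differ, at 32473 CPM of raw UMIs in its epithelial compartment and 1654 CPM in its macrophage-like cells.

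Genes of chromosome 4 had the highest median difference of all chromosomes in whole tumours and in the epithelial compartment, a pattern chosen after all chromosomes were seen. In the epithelial compartment the 291 genes of chromosome 4 with an average log2 CPM of at least 5 had a median log2 fold change of 0.82, against -0.03 for the other chromosomes. The shift was present at both ages, at 0.85 in the 17-week pair and 0.92 in the 16-week pair. In 71.1% of these genes the mixed tumours lay above both solid nodular ones, compared with 27.9% of the genes of other chromosomes. Chromosome 10 came next, at 0.35. In whole tumours the chromosome 4 median was 0.58, and in macrophage-like cells 0.07 over 135 genes.

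As a share of all epithelial UMIs, chromosome 4 genes gave 5.42% and 5.66% in the mixed tumours and 2.86% and 3.46% in the solid nodular tumours. The immune compartment gave 5.27% and 5.46% against 5.55% and 5.92%, and the stromal compartment 4.71% and 4.86% against 4.74% and 4.99%. By this share, in neither of these did both mixed tumours lie above both solid nodular ones. By the median log2 deviation of chromosome 4 genes from the other genes, they did in all 3 compartments: 0.39 and 0.47 against -0.44 and -0.42 in the epithelial, -0.01 and 0.03 against -0.04 and -0.05 in the immune, and 0.04 and 0.01 against -0.04 and -0.002 in the stromal compartment. Among the 8 nulliparous tumours the epithelial share was 3.03%, 3.56% and 5.36% in the 3 with the d16 form of HER2, the first of them solid nodular and the others metaplastic. It was 4.83% to 6.03% in the 5 metaplastic tumours with the p95 form. Of the 158 genes that rose in the epithelial compartment 17 lie on chromosome 4 (10.8%, against 5.94% of genes tested), Cdkn2a among them, and of the 18 that fell none does. Cluster 12 was left out on another measure, log2 ratios of CPM plus 1 without TMM, over genes with a mean CPM of at least 32. On it the chromosome 4 median was 0.87 against 0.02 elsewhere with cluster 12, and 1.04 against 0.15 without it. An example among genes with no single call is Sdhb, a subunit of respiratory complex II on chromosome 4, at 141 and 145 CPM against 73.2 and 81.8 CPM (0.89 ± 0.25, adjusted p = 0.16), in a list whose other genes mostly lay below 0.

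**Figure D5:**
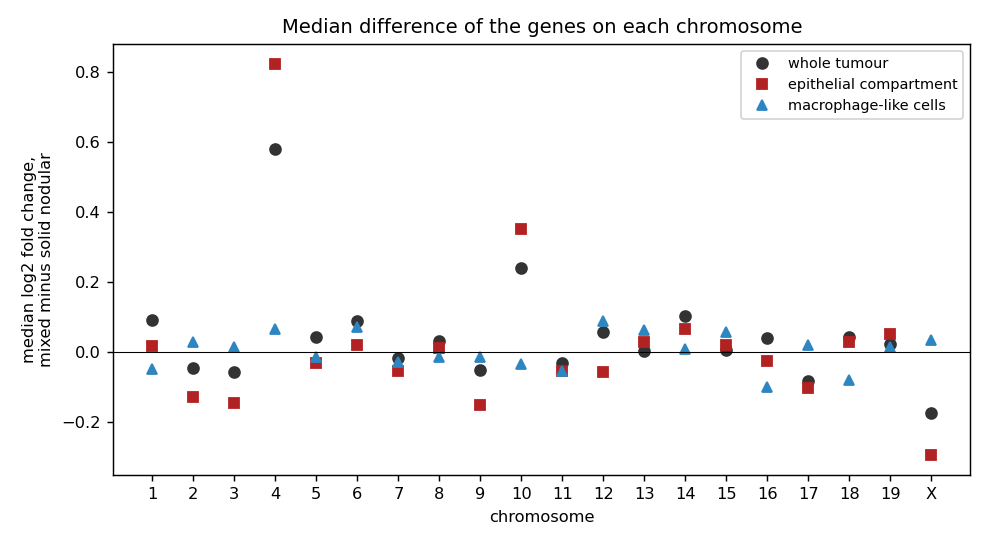
Median log2 fold change, mixed minus solid nodular, of the genes on each chromosome in whole tumours (circles), the epithelial compartment (squares) and macrophage-like cells (triangles). Chromosome 4 stands highest in whole tumours at 0.58 and in the epithelial compartment at 0.82, while macrophage-like cells are near 0 on it at 0.07.

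Macrophage-like cells gave no gene past the test. They numbered 33 and 64 in the mixed and 84 and 28 in the solid nodular tumours, and of 2292 genes tested edgeR called 0, with 179 (7.81%) at an unadjusted p under 0.05. DESeq2 and limma voom also called 0. The smallest p went to Adamdec1, a secreted metalloprotease of tissue macrophages, at 291 and 285 CPM against 5.71 and 0 CPM (5.84 ± 0.74, adjusted p = 0.0895). Csf2rb, the shared receptor chain for GM-CSF, was at 2395 and 1946 CPM against 634 and 588 CPM (adjusted p = 0.365), while its ligand gene Csf2 rose in the epithelial compartment. Stab1, a scavenger receptor, was at 235 and 168 CPM against 622 and 806 CPM, and Tnf at 83.1 and 50.3 CPM against 474 and 217 CPM (adjusted p = 0.365 and 0.409). The groups did not overlap in any of these 4 genes, as in 18.3% (mixed above) and 18.6% (mixed below) of all genes tested. Of 10 MHC class II genes 7 lay above 0 (median 0.65), and of 19 chemokines and cytokines 7 did (median -0.36), against 49.4% and a median of -0.01 for all genes.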

How the data were processed

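Single-cell 3′ expression was measured in 12 mammary tumours, and the 4 multiparous ones are reported. The authors deposited whole-number UMI counts per gene and cell, per the file contents. Several libraries of a tumour were joined before deposit, per the labels. GRCm38 and Seurat 3.0.2 are named in the submitters' processing notes; the aligner, counting, annotation and cell calling are not given in the sources used here. Of 24421 genes listed, 23384 were found in GENCODE M21 by symbol, after 1958 altered names, 27 of them turned into dates, had been restored. No mitochondrial gene is listed, so no filter on them was possible.

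Cells with 200 or more detected genes were kept, and UMIs were summed per tumour. Genes passing edgeR's filterByExpr were tested with its quasi-likelihood test (edgeR 4.0.16, R 4.3.3, TMM, Benjamini-Hochberg threshold 0.05) on the 4 tumours. Scripts were tested on simulated data. Cells of all 12 tumours were clustered with scanpy 1.11.5 (10000 UMIs per cell, 2000 variable genes, 30 components, 15 neighbours, Leiden resolution 1, 23 clusters). A cluster took the class with the highest mean marker score. A doublet score by simulated doublets (30 neighbours) marked 62 cells of these tumours (164 of all cells, 2.23%), and these were kept. Free RNA was not removed. Positions are from GENCODE M21 on GRCm38.

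Members, gene lists and tests were chosen with earlier results of these data known. Named genes were, per fit, up to 12 rising and 12 falling genes past the threshold with average log2 CPM of 4 or more (6 and 6 within cell groups), filled by smallest p among genes whose groups did not overlap where a direction had fewer than 5, plus up to 4 genes of each of 27 lists with the largest change, plus a fixed panel. Others are named as chosen after their values were seen, or as list members. Alternatives were DESeq2 1.42.0, limma voom 3.58.1, other size factors, no low-count filter, all 12 tumours, age as a block, no doublets, a 500-gene minimum, no immune clusters, and each tumour left out. No sample was dropped or imputed. Results of a few genes are not reported here, and all counts include them.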

Additional observations from a re-analysis of the deposited data

Results flagged for a closer look

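In whole tumours, among the genes with values in the text, 8 were found whose 17-week and 16-week pairs differed in opposite directions by more than 1 log2 unit, mixed over solid nodular (CPM plus 1). With 1 tumour per label and age these differences were not tested. In 7 of them the 17-week ratio was negative and the 16-week ratio positive, the 17-week solid nodular tumour being the high one. These were the beta-casein gene Csn2 (-7.64 and 5.68), the casein genes Csn1s2a (-8.01 and 4.95) and Csn3 (-3.88 and 1.42), the milk-fat protein gene Btn1a1 (-5.82 and 1.26), lactoferrin, Ltf (-3.53 and 2.36), Comp (-4.93 and 2.34) and Tspan8 (-3.42 and 2.14). Nkd1 went the other way (1.29 and -5.57), being highest in the 16-week solid nodular tumour. Groups of 2 are too small for the test of single outlying samples.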

How the results depend on the processing

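Counts of genes passing, higher then lower in mixed, were 26 and 6 in whole tumours, 158 and 18 in the epithelial compartment and 0 and 0 in macrophage-like cells. In whole tumours they were 407 and 205 with DESeq2, 48 and 12 with limma voom, 602 and 474 without the low-count filter, 0 and 0 with all 12 tumours, 123 and 48 with age as a block, and 80 and 26 without immune clusters. In the epithelial compartment they were 389 and 126 with DESeq2, 402 and 139 without the filter, 0 and 0 with all 12 tumours, 0 and 0 with age as a block, and, added after seeing the data, 964 and 685 without cluster 12. In macrophage-like cells they were 19 and 28 without the filter and 1 and 1 with age as a block. Leaving out 1 tumour gave 0 to 1048 and 0 to 916 genes in whole tumours, 0 to 1685 and 0 to 1487 in the epithelial compartment, and 5 to 58 and 14 to 94 in macrophage-like cells. The labels give no replicate numbers, so no pairing beyond age was possible. Over the fits that left out 1 tumour, the log2 fold change ran from -8.17 to 10.56 for Csn2, -8.46 to 9.59 for Csn1s2a, -7.00 to 5.87 for Btn1a1, -4.59 to 3.95 for Ltf, -4.95 to 2.67 for Comp, -3.47 to 2.36 for Tspan8 and -4.19 to 1.82 for Csn3, each positive only without the 17-week solid nodular tumour, and from -5.14 to 1.08 for Nkd1, positive only without the 16-week one. No other gene refitted changed direction; genes named only as list members, and epithelial Col1a1, were not refitted. The difference in share, in percentage points, turned for epithelial-like cells (8.80; from -21.4 without the 16-week to 39.0 without the 17-week solid nodular tumour), macrophage-like cells (-1.95; from -5.00 without the 16-week to 1.09 without the 17-week mixed tumour, and 0.344 with the 4 tumours clustered alone) and T or NK-like cells (0.592; -0.592 without the 17-week mixed, -0.579 without the 17-week solid nodular and up to 1.78 without the 16-week mixed tumour). The cause was not tested. With 2 tumours per label and 344 cells in the shallowest, small differences were not detectable.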

Other observations

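Other gene lists in whole tumours had medians between -0.59 and 1.19 and, apart from 1 acute phase gene, Wfdc2, that rose, no gene past the test in edgeR. Wfdc2 is also on the luminal marker list, of whose 12 tested genes 6 lay above 0 and 6 below (median 0.05). In the epithelial compartment Wfdc2 and the luminal keratin gene Krt19 rose, with 6 of the 12 luminal markers above 0 and 6 below (median 0.42). Collagen and matrix genes lay above 0 in 19 of 26 (median 1.19), with Col1a1 at 3142 and 1664 CPM in the mixed and 494 and 1263 CPM in the solid nodular tumours. Fibroblast-like cells were also more frequent in the mixed tumours (mean 15.5% against 7.30%), and their part in these values was not tested. Of the chondroid and osteoid genes, 7 of 12 lay above 0 (median 0.36). Col9a1, a cartilage collagen of that list, was lower in the mixed tumours, at 86.9 and 60.6 CPM against 1866 and 244 CPM (adjusted p = 0.131). Luminal keratin and junction genes lay above 0 in 7 of 28 (median -0.59) and lipid synthesis genes in 8 of 20 (median -0.39). Luminal progenitor genes lay above 0 in 2 of 11 (median -0.36): Elf5, a transcription factor of alveolar cells, was at 10.2 and 1.87 CPM against 89.1 and 24.6 CPM, and Kit at 23.1 and 15.4 CPM against 135 and 40.0 CPM.

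Genes driven by ERK signalling had a median of -0.16, with 8 of 17 above 0. In 3 of them the mixed tumours lay apart above and in 5 below, beside 26.9% and 26.1% of all genes tested. Summed over the list, the mixed tumours were higher, at 7526 and 8511 CPM against 5967 and 7280 CPM. Among the ERK genes that lay below, Etv5 was at 10.5 and 12.6 CPM in the mixed and 96.6 and 36.9 CPM in the solid nodular tumours (adjusted p = 0.094). Etv1 was at 6.79 and 4.67 CPM against 72.4 and 27.7 CPM (adjusted p = 0.081). Interferon response genes lay above 0 in 17 of 25 (median 0.35), and hypoxia and glycolysis genes in 11 of 21 (median 0.01). Saa3, an acute phase protein, was at 472 and 298 CPM against 44.4 and 24.6 CPM (adjusted p = 0.0559).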
